A study of Mus musculus with 16 samples.

Results

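The genes described are the Wnt ligands, their receptors and the modulators of the pathway, 60 of the 41325 genes in the count tables. They were taken by symbol: every Wnt, Frizzled (Fzd), secreted Frizzled-related protein (Sfrp) and R-spondin (Rspo) gene with a number in its name, and a fixed set of named co-receptors, inhibitors and intracellular factors. By role they comprise 19 ligands, 14 receptors and co-receptors, 9 genes of the R-spondin axis, 10 inhibitors and 8 intracellular factors, the last with Porcn, which works inside ligand-making cells. RNA was sequenced from immortalized mouse preadipocytes, wild type and of the C57Bl6/J strain, at day 0 or at day 6 of differentiation into fat cells, with no agent or after pre-treatment with Il13 (interleukin-13, a type 2 immune cytokine, IL-13 in what follows) for 16 h. The 4 groups were untreated day 0, IL-13 day 0, untreated day 6 and IL-13 day 6, each with 4 libraries numbered 1 to 4, and values are given in that order. The labels name no separate cultures or clones, so a p-value measures the spread between libraries, which may be technical. Each day came as a table of its own, so day and table cannot be told apart.

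Wnt proteins are secreted, lipid-modified ligands that bind a Frizzled receptor together with the co-receptor Lrp5 or Lrp6. Binding stops the Axin complex from marking beta-catenin (Ctnnb1) for breakdown, and beta-catenin then acts on genes through the DNA-binding factors Tcf7, Lef1, Tcf7l1 and Tcf7l2; R-spondins, held by Lgr receptors, protect Frizzled from removal by the ligases Znrf3 and Rnf43. In preadipocytes, Wnt signalling through beta-catenin is known to hold back differentiation, and Wnt10b is the ligand best known for it.

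The promoters of members in the RefSeq table (build GRCm38.p6, 250 bases before to 50 bases after a start site) were searched on both strands for TTCNNNNGAA, letters bound by Stat6, the factor that IL-13 receptors activate, and for the words that Tcf and Lef factors bind, which are CTTTGAA, the variant CTTTGAT and the further variant CTTTGTT. The table held 49 windows of 39 members; TTCNNNNGAA was in 3 of these windows (6.12%) against 6.95% of all 32851, and any of the Tcf and Lef words in 6 (12.2%) against 13.9%. The sequences of 3 windows are shown because IL-13 lowered these transcripts before differentiation: Lgr4 and the third listed start of Lef1, the only windows with TTCNNNNGAA among members that it changed, and Fzd5, the receptor lowered most, with no match. Capitals mark the match, which begins at position -176 from the start site in Lgr4 and at -131 in Lef1.
Lgr4, chr2:109917397-109917696, plus strand: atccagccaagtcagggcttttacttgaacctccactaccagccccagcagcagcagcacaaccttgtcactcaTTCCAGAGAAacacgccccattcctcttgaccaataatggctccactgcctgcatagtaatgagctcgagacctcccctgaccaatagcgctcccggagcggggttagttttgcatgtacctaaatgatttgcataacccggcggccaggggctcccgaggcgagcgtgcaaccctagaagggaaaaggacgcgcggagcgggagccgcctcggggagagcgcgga
Lef1, chr3:131112541-131112840, plus strand: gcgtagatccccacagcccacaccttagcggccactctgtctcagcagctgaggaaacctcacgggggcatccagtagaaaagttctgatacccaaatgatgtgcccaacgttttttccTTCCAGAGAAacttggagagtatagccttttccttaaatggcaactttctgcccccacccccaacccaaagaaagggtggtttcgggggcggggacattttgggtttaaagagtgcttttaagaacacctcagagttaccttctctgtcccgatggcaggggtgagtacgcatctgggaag
Fzd5, chr1:64737701-64738000, minus strand: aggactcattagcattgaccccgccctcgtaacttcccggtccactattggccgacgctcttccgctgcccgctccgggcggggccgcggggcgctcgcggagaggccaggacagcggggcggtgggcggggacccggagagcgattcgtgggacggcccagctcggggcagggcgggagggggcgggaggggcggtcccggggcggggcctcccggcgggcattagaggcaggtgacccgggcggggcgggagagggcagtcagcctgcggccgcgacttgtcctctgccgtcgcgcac
Both matches have the same letters, TTCCAGAGAA, which 65 of all 32851 promoters hold (0.198%); this was looked up after the match was seen. The other 3 Lef1 windows in the table hold none of the motifs. A match describes the letters in a window and is no evidence of binding.

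The levels show which parts of the pathway these cells transcribed. Levels of different genes are compared as the authors' TPM values, which divide by gene length; all other levels are CPM, counts relative to library size, scaled across the 16 libraries by edgeR's TMM method. In untreated day 0 cells Ctnnb1 led with 621 ± 30.0 TPM (SD, n = 4), followed by the Wnt-binding inhibitor Sfrp2 with 408 ± 15, the receptor Fzd1 with 156 ± 7.04 and the inhibitor Sfrp1 with 95.6 ± 5.0. Tcf7l1 (65.5 ± 4.35), Axin1 (64.5 ± 4.64) and Lrp6 (62.3 ± 6.93) came next and did not differ beyond their spread. The 19 ligands summed to 13.7 ± 1.61 TPM and the 10 Frizzled genes to 306 ± 13.9, so the ligand sum was far below the receptor sum. In untreated day 6 cells the order was Ctnnb1 with 277 ± 10.7 TPM, Lrp6 with 68.5 ± 8.61, Tcf7l1 with 54.6 ± 3.49 and Fzd4 with 48.3 ± 4.61, followed by Lrp5 with 44.1 ± 1.56, where from Lrp6 on the range of each gene overlapped that of the next.

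Of the 60 members, 34 passed the filter on low counts in at least 1 comparison and 26 in none. Wnt10a, Wnt3a, Wnt8a, Rspo1, Dkk1 and Fzd10 had 0 counts in all 16 libraries, which allows up to 0.0418 to 0.0466 CPM over the 4 libraries of a group (3 counts, counting error only). Another 12 had 1 to 10 counts over all libraries, namely the stem cell receptor Lgr5, Rspo3 and Rspo4 with 3 each, the secreted Wnt binder Wif1 with 5, Sfrp5 with 1, and the ligands Wnt1, Wnt3, Wnt6, Wnt7a, Wnt7b, Wnt8b and Wnt9b with 1 to 8. The remaining 8 held 12 to 91 counts: Notum, Wnt4, Wnt2b, Fzd9, Ror1, Rnf43, Wnt2 and Wnt11. Wnt11, a ligand of the beta-catenin-independent branch, had 11 and 5 counts in the untreated and IL-13 libraries of day 0 and 37 and 38 in those of day 6.

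Libraries held 15253031 to 18112087 counts. Of 10 preadipocyte markers 8 had a mean of at least 1 CPM in each group, though not the same 8, with Pdgfra, Pdgfrb, Thy1, Col1a1 and Zfp423 among them in every group. Their summed level was 7600 to 10800 CPM in untreated day 0 libraries, 11800 to 13500 in IL-13 day 0 libraries and 1080 to 1440 at day 6. Col1a1 made up most of this sum (7580 ± 1490 CPM untreated and 11400 ± 913 after IL-13 at day 0), while Dcn had 2.21 ± 0.332 and 0.603 ± 0.258 CPM and Lum 0.723 ± 0.101 and 0.2 ± 0.167. Adipocyte markers summed to 512 to 551 CPM in untreated and 480 to 501 CPM in IL-13 libraries of day 0, without overlap. Single markers went both ways, with Pparg at 62.8 ± 1.81 CPM untreated and 93.5 ± 6.18 after IL-13, and Lpl at 330 ± 12.2 and 265 ± 7.45. At day 6 the sum was 25500 to 28800 CPM. At or above 1 CPM were 5 of 10 at day 0 and 10 of 10 at day 6, with Cfd and Retn at 0 counts in IL-13 day 0. Mural and smooth muscle markers summed to 3310 to 4440 CPM at day 0, with overlapping groups, and to 71.2 to 99.2 at day 6. Immune, endothelial and epithelial markers summed to at most 8.60, 4.06 and 0.309 CPM, with Adgre1 at 0 counts in every group. A nuclear RNA index was the mean log2(CPM + 1) of 23 transcripts. These were nuclear-retained RNAs such as Malat1 together with transcripts of splicing factors such as Srsf11, so the index does not measure nuclear RNA alone. It was 5.04 to 5.77 in untreated against 4.66 to 4.84 in IL-13 libraries of day 0. At day 6 the index was 5.71 to 6.37 against 4.82 to 5.39, with no overlap within a day. Less RNA per cell and fewer cells with a transcript cannot be told apart in these bulk libraries.

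After IL-13 pre-treatment, 19 of 32 tested members (59.4%) differed before differentiation, at day 0, 5 higher and 14 lower. Calls were made with edgeR's quasi-likelihood test at a Benjamini-Hochberg adjusted p under 0.05. Of all 12274 tested genes, 47.9% were called. Over all tested genes 23.7% were higher and 24.2% lower, so the share of members that rose is below that of all genes and the share that fell above it; the median log2 fold change was -0.148 over the members and -0.011 over all genes. The R-spondin axis had 3 of 4 tested members lower, the receptors 3 higher and 5 lower of 11, the ligands 2 lower of 5, the inhibitors 1 higher and 1 lower of 5, and the intracellular factors 1 higher and 3 lower of 7. The nuclear RNA index moved with the treatment and did not overlap between the day 0 groups. A fit with it as a covariate therefore cannot fully separate the index from IL-13, and a call lost there does not show that IL-13 had no effect. With this covariate 10 members remained called, 4 higher (Sfrp1, Tcf7l1, Fzd1, Fzd4) and 6 lower (Rspo2, Lef1, Wnt16, Fzd5, Tcf7l2, Fzd2), where 7.53% of all genes were called in place of 47.9%. Without untreated day 0 libraries 1 and 4, 16 of 33 tested members were called, 4 higher and 12 lower, and 28.1% of all genes. Scaling by total counts moved the median of all genes to -0.131 and the split over all genes from 2912 higher and 2969 lower to 1682 and 4523, while the members went from 5 and 14 to 4 and 15.

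**Figure D1:**
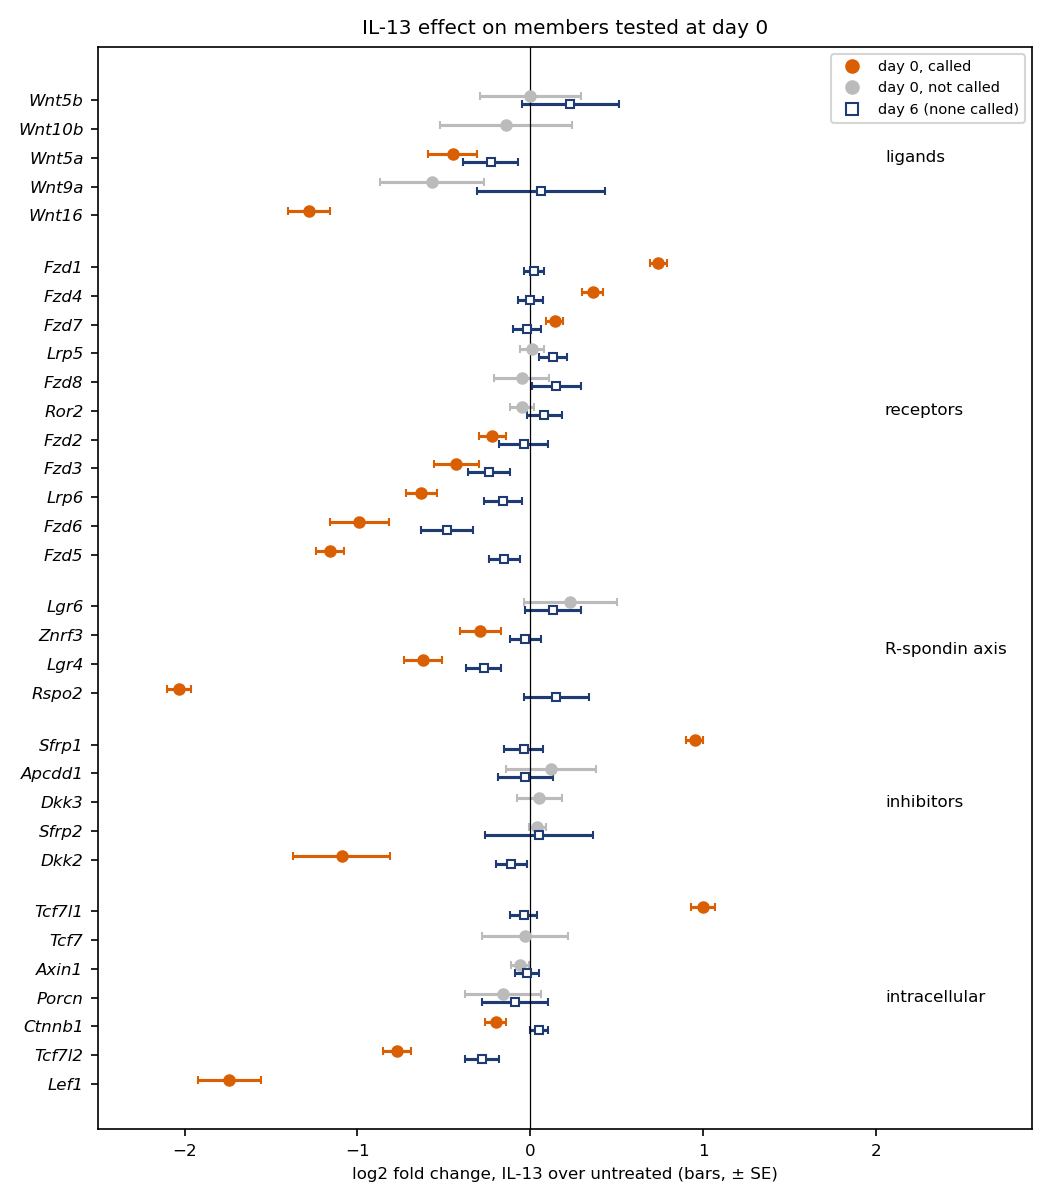
Log2 fold change of IL-13 over untreated libraries (x axis, bars ± SE) for the 32 members tested at day 0, by role; circles are day 0, orange where called and grey where not, and open squares are day 6 for the members also tested there. Rspo2 lies farthest left at -2.03 and Tcf7l1 farthest right at 1.00 at day 0, while no square was called.

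Rspo2 had the largest change of the members tested for IL-13 at day 0. This R-spondin gene (ENSMUSG00000051920, chromosome 15, 43020794 to 43170826, minus strand, mm10) read 68.5, 67.8, 66.5 and 69.0 CPM in untreated day 0 libraries and 15.5, 16.7, 16.4 and 18.8 CPM after IL-13. The highest treated library was far below the lowest untreated one, and the fall was 4.07-fold, or -2.03 ± 0.07 on the log2 scale (SE, adjusted p = 2.15e-12). Lgr4, a receptor for R-spondins (chromosome 2, 109917647 to 110014257, plus strand), read 69.3, 69.8, 58.6 and 69.9 CPM untreated and 45.1, 43.0, 35.4 and 52.2 CPM after IL-13. The groups did not overlap (log2 fold change -0.62 ± 0.11, adjusted p = 0.000588), but in a fit with the nuclear RNA index as covariate the change was -0.29 and not called (adjusted p = 0.43). Znrf3, the ligase that removes Frizzled from the cell surface, had 8.60, 10.7, 9.72 and 8.19 CPM untreated and 8.44, 7.41, 6.47 and 8.30 CPM after IL-13. Its groups overlapped, and its call (-0.29 ± 0.12, adjusted p = 0.0486) was lost without untreated library 1, 2 or 3 or IL-13 library 2 or 3 (adjusted p 0.0544 to 0.162), with size factors in place of TMM (0.0516), with no filter (0.0501), with all 16 libraries in one fit (0.0537), with DESeq2 (0.107) and with the index (0.306). Lgr6, the other Lgr receptor tested, had 0.666, 1.05, 1.61 and 0.910 CPM untreated and 0.958, 1.33, 1.36 and 1.34 CPM after IL-13, with overlapping groups (adjusted p = 0.495).

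Among receptors, IL-13 raised the most abundant Frizzled and lowered several others. Fzd1 (chromosome 5, 4753839 to 4758035, minus strand) read 175, 179, 179 and 177 CPM untreated and 299, 314, 278 and 310 CPM after IL-13. All treated libraries were above all untreated ones (log2 fold change 0.74 ± 0.05, adjusted p = 2.81e-08). Fzd4, which also serves as receptor for the non-Wnt ligand Norrin, had 50.5, 47.4, 47.4 and 46.9 CPM untreated and 65.8, 59.0, 57.1 and 67.2 CPM after IL-13. The groups did not overlap, and the rise was 0.36 ± 0.06 (adjusted p = 0.000378). Fzd7, another Frizzled receptor, had 66.3, 61.7, 66.3 and 62.1 CPM untreated against 74.7, 68.8, 69.0 and 73.8 CPM. Its rise of 0.14 ± 0.05 (adjusted p = 0.0351) was lost without untreated library 2 or 4 or IL-13 library 1 or 4 (adjusted p 0.0725 to 0.103), without untreated libraries 1 and 4 together (0.0946), with the nuclear RNA index (0.377) and with total count scaling, where it was 0.0259 (0.728).

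Fzd5 fell most among receptors. It lies on chromosome 1, 64730558 to 64737751, minus strand, and read 27, 26.8, 24.9 and 26.5 CPM untreated and 11.4, 12.4, 10.7 and 13.0 CPM after IL-13. Every treated library was lower than every untreated one (-1.16 ± 0.08, adjusted p = 2.10e-08); 17.8% of its exon bases overlap a gene on the opposite strand. The same holds for 16.1% in Sfrp2, 14.6% in Ctnnb1 and 13.7% in Lef1, and the sources used here do not say whether counting used strand, so reads of such a gene and of its partner may not be separated. The co-receptor Lrp6 had 242, 236, 207 and 234 CPM untreated and 169, 140, 128 and 163 CPM after IL-13, with no overlap (-0.63 ± 0.09, adjusted p = 8.98e-05). With the nuclear RNA index Lrp6 was at -0.34 and not called (adjusted p = 0.181). Its close relative Lrp5 stayed at 93.5 to 122 CPM untreated and 103 to 111 CPM after IL-13 (adjusted p = 0.894). Fzd6 (-0.99 ± 0.17) and Fzd3 (-0.43 ± 0.13), receptors known from planar cell polarity, were also lower, and neither was called with the index. Fzd2 had 40.5, 42.8, 54.5 and 48.0 CPM untreated and 41.5, 40.4, 40.8 and 38.7 CPM after IL-13. Its overlapping groups gave -0.22 ± 0.08 (adjusted p = 0.033), a call lost without untreated library 3 or 4 or any 1 of the IL-13 libraries 1, 2, 3 and 4 (adjusted p 0.0519 to 0.105), with DESeq2 (0.0596) and with all 16 libraries in one fit (0.072). Fzd8 (3.16 to 4.71 CPM untreated and 3.32 to 4.24 CPM after IL-13) was called in no comparison. Ror2, a receptor tyrosine kinase for Wnt5a, had 24.5, 24.3, 27 and 26.2 CPM untreated and 23.2, 27.2, 23.6 and 25.8 CPM after IL-13 and was not called (adjusted p = 0.607).

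These shifts changed the make-up of Frizzled transcripts. By TPM, Fzd1 made up 51.0% ± 0.881 of the summed Frizzled level in untreated day 0 libraries and 64.1% ± 1.29 after IL-13. The share of Fzd2 was 15.3% ± 1.75 untreated and 9.88% ± 0.579 after IL-13, and that of Fzd5 4.59% ± 0.258 and 1.54% ± 0.0888. Fzd4 held 8.62% ± 0.384 and 8.30% ± 0.485, so its share did not differ beyond the spread although its CPM rose. Shares within a family sum to a whole, so a larger part of 1 gene lowers the others.

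**Figure D2:**
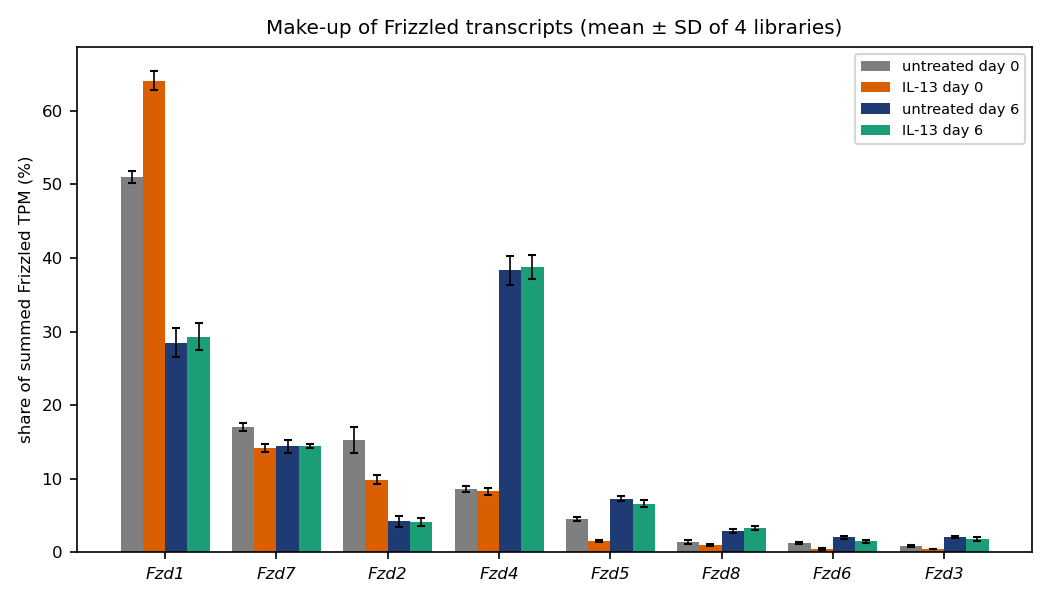
Share of the summed Frizzled TPM held by each Frizzled gene (y axis, %), as mean and SD of 4 libraries per group. Fzd1 has the tallest bars at day 0, 51.0% untreated and 64.1% after IL-13, and Fzd4 the tallest at day 6, 38.3% and 38.8%.

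The inhibitors went different ways. Sfrp1, a secreted protein that binds Wnt ligands (chromosome 8, 23411502 to 23449632, plus strand), read 116, 111, 115 and 111 CPM untreated and 219, 227, 217 and 219 CPM after IL-13. Every treated library was well above the untreated ones, a 1.93-fold rise (log2 fold change 0.95 ± 0.05, adjusted p = 3.71e-10). Sfrp2, from the same family, read 226, 239, 249 and 239 CPM untreated and 250, 254, 230 and 253 CPM after IL-13, overlapped and was not called (0.04 ± 0.05, adjusted p = 0.598). Dkk2, a secreted protein that binds Lrp5 and Lrp6, had 1.18, 1.29, 1.32 and 0.803 CPM untreated and 0.419, 0.696, 0.593 and 0.447 CPM after IL-13. Its groups did not overlap (-1.09 ± 0.28, adjusted p = 0.00499), though with the nuclear RNA index it was at -1.47 and not called (adjusted p = 0.0876). Dkk3, a secreted Dickkopf relative, had 5.38, 8.13, 5.47 and 6.85 CPM untreated and 7.37, 6.52, 6.47 and 6.58 CPM after IL-13 (adjusted p = 0.77). Apcdd1, a membrane inhibitor, had 1.28, 2.59, 1.27 and 1.34 CPM untreated and 1.26, 1.71, 2.25 and 1.79 CPM after IL-13 (adjusted p = 0.731), so neither of these groups stood apart.

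The Tcf and Lef factors moved in opposite directions. Tcf7l1, which is known mainly as a repressor of Wnt targets (chromosome 6, 72626378 to 72789254, minus strand), read 66.8, 64.7, 78.1 and 69.1 CPM untreated and 136, 153, 148 and 128 CPM after IL-13. All treated libraries were higher, by 2.01-fold (1.00 ± 0.07, adjusted p = 1.24e-08). Tcf7l2, the factor best known from metabolic tissue, read 38.7, 39.4, 38.7 and 39.7 CPM untreated and 24.6, 21.2, 19.9 and 26.8 CPM after IL-13. No treated library reached the untreated range (-0.77 ± 0.08, adjusted p = 3.82e-06). Lef1 (chromosome 3, 131110471 to 131224356, plus strand) was low, with 3.89, 3.82, 3.40 and 3.80 CPM untreated and 1.20, 1.14, 0.831 and 1.34 CPM after IL-13, groups well apart (-1.74 ± 0.18, adjusted p = 2.14e-06). Tcf7 had 2.46, 2.16, 1.90 and 1.55 CPM untreated and 2.10, 1.20, 3.03 and 1.60 CPM after IL-13, with the untreated range inside the treated one (adjusted p = 0.924). By TPM Tcf7l1 made up 75.7% ± 1.86 of the 4 factors untreated and 91.0% ± 1.45 after IL-13, and Tcf7l2 19.2% ± 1.23 and 6.76% ± 1.36.

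Ctnnb1, the transducer itself, was slightly lower after IL-13, at 753 to 782 CPM against 847 to 926 CPM (-0.20 ± 0.06, adjusted p = 0.00756), and was not called with the nuclear RNA index. The scaffold Axin1 was at 63.3 to 65.5 CPM after IL-13 and 64.4 to 68.1 CPM untreated (adjusted p = 0.292). Axin2, the classic feedback target of beta-catenin, was close to undetected at day 0, with 0, 0.185, 0 and 0.0535 CPM untreated and 0.12, 0.19, 0 and 0.0639 CPM after IL-13, and did not pass the filter at day 0. Porcn, which lipidates Wnt ligands for secretion, had 2.30, 1.54, 1.73 and 3.05 CPM untreated and 1.86, 2.34, 2.02 and 1.66 CPM after IL-13 (adjusted p = 0.582).

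Of the ligands, Wnt16, a ligand known from bone (chromosome 6, 22288227 to 22298522, plus strand), had 8.09, 8.50, 9.09 and 9.53 CPM untreated and 4.07, 3.48, 2.97 and 4.09 CPM after IL-13. The groups lay far apart (-1.28 ± 0.12, adjusted p = 1.18e-06). Wnt5a, the main ligand of beta-catenin-independent signalling, had 3.89, 3.88, 4.66 and 4.82 CPM untreated and 2.93, 3.61, 2.85 and 3.39 CPM after IL-13. The groups did not overlap, but the fall of -0.45 ± 0.14 (adjusted p = 0.0173) was lost without untreated library 4 (0.0592), IL-13 library 3 (0.0579), untreated libraries 1 and 4 together (0.0861), with DESeq2 (0.0562) and with the nuclear RNA index (0.365). Wnt9a, a ligand of joints and liver, had 1.08, 0.862, 0.863 and 1.07 CPM untreated and 0.539, 0.633, 1.07 and 0.383 CPM after IL-13, where library 3 lay inside the untreated range (adjusted p = 0.133). Wnt10b had 1.48, 0.369, 0.518 and 1.28 CPM untreated and 0.898, 0.823, 0.653 and 1.09 CPM after IL-13 (adjusted p = 0.789). Wnt5b, a relative of Wnt5a, had 0.614 to 1.17 CPM untreated and 0.633 to 1.13 CPM after IL-13 and was called in no comparison. Summed over all 19 ligand genes the TPM was 12.7 to 16.1 in untreated and 7.46 to 8.30 in IL-13 libraries, with Wnt16 making up 54.4% ± 1.91 and 34.3% ± 6.52.

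**Figure D3:**
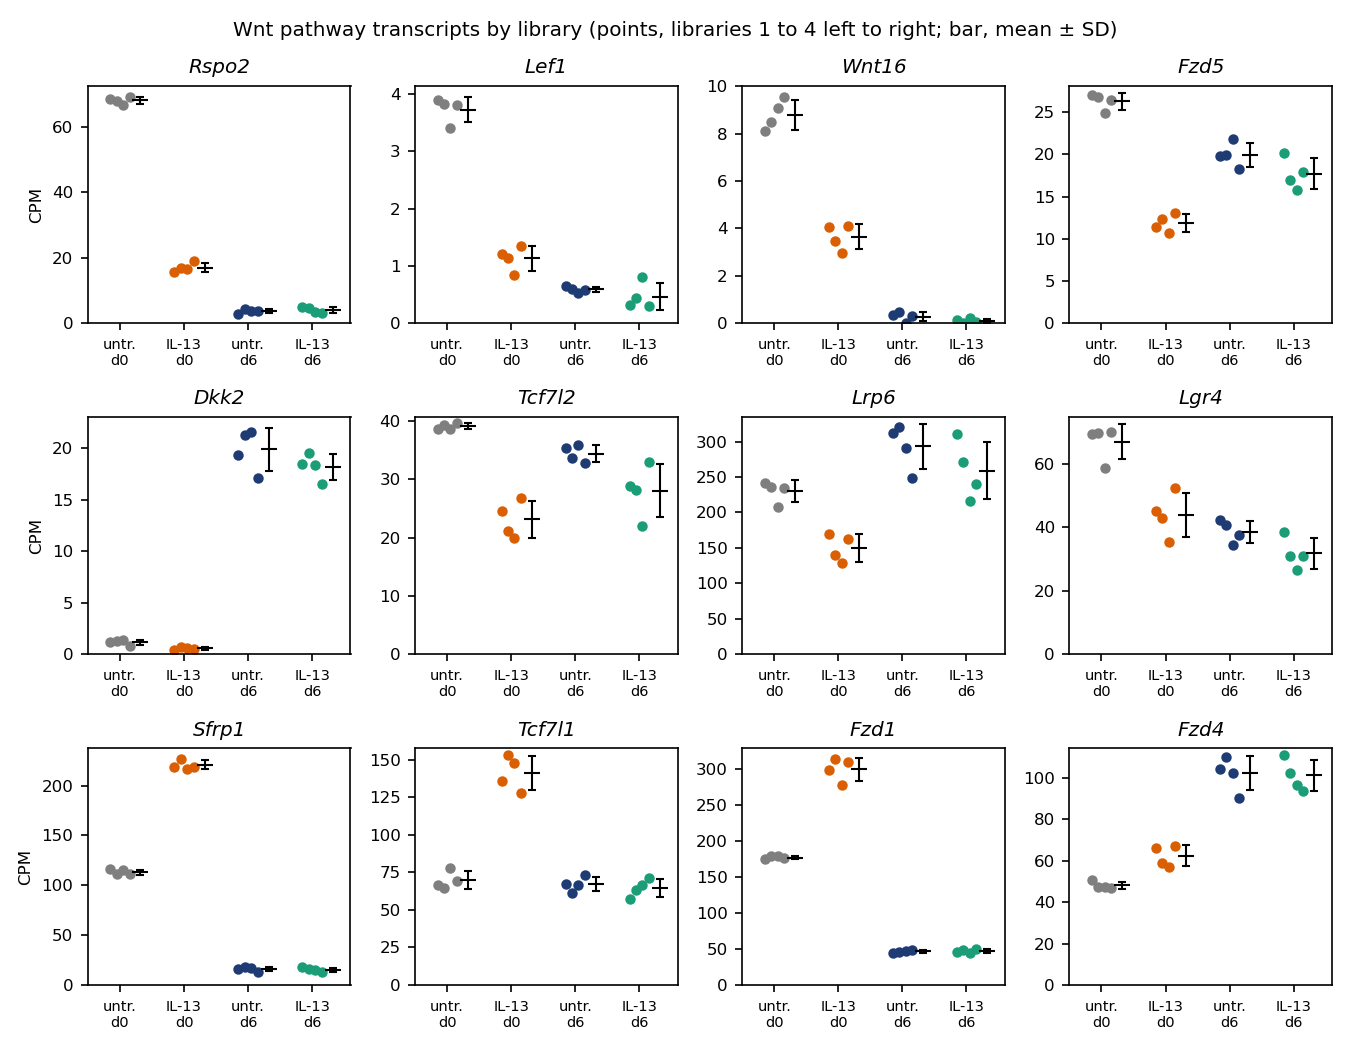
CPM of 12 members in every library (points, libraries 1 to 4 from left to right within a group) with the mean and SD of each group beside them; untr. is untreated, d0 day 0 and d6 day 6, and every y axis starts at 0. In the top 2 rows IL-13 lowers the day 0 level, as for Rspo2 from about 68.0 to 16.9 CPM, and in the bottom row it raises it. No plotted member tested at day 6 was called there. The day 6 means lie close together for some, such as Fzd1, and are lower after IL-13 for others, such as Tcf7l2 and Lgr4.

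Of 78 other genes of the pathway found in the tables, from intracellular kinases to planar polarity proteins and Wnt targets, 65 were tested at day 0. After IL-13, 15 were higher and 28 lower, with a median log2 fold change of -0.116. Over all genes 23.7% were higher and 24.2% lower, with a median of -0.011. The phospholipase C genes Plcb1 (2.31 ± 0.14, adjusted p = 4.66e-09) and Plcb4 (1.84 ± 0.09, adjusted p = 1.23e-09), effectors of the calcium branch, rose most. The corepressor Ctbp1 (0.29 ± 0.06) and the kinase Gsk3a (0.25 ± 0.06) rose slightly. Daam2, a formin of the polarity branch (-0.90 ± 0.05, adjusted p = 1.69e-09), the polarity co-receptor Ptk7 (-0.84 ± 0.08), the calcium-dependent kinase Camk2d (-0.69 ± 0.06) and the Wnt-induced secreted protein Wisp1 (-0.53 ± 0.05) fell. With total count scaling the split was 7 higher and 35 lower, where the split over all genes also moved towards lower, as given above. With the nuclear RNA index 11 genes were called, and without untreated day 0 libraries 1 and 4 the count was 26. Over all genes the called share went from 47.9% to 7.53% with the index and to 28.1% without these libraries.

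At day 6 no member was called between treated and untreated cells: 0 of 28 tested were higher or lower, where 2.21% of all genes were higher and 4.34% lower. At an unadjusted p under 0.05 there were 3 members, where over all genes there were 3325 of 12352, and DESeq2 called 0 members. Total count scaling called 1 (Fzd6), with 8.78% of all genes called, and leaving out IL-13 library 1 called 4 of 30 (Fzd3, Fzd6, Lrp5 and Lgr4), with 18.7% of all genes called. Fzd6 was the largest change, with 4.31, 3.74, 3.82 and 3.65 CPM untreated and 2.97, 2.36, 3.14 and 2.56 CPM after IL-13, groups that did not overlap (-0.48 ± 0.15, adjusted p = 0.0687). The tested members ranged from -0.48 to 0.23 with a median of -0.033, against 0.009 over all genes. Dkk3, Lef1, Tcf7, Wnt10b and Wnt16 passed the filter at day 0 but not at day 6, and Axin2 at day 6 but not at day 0. Of 63 other pathway genes 2 were lower after IL-13 and 0 higher: the corepressor Tle2, at 4.62 ± 1.08 CPM untreated and 2.14 ± 0.411 after IL-13 (-1.10 ± 0.20, adjusted p = 0.0161), and Bcl9, a beta-catenin cofactor (-0.28 ± 0.08, adjusted p = 0.0498). That count of 2 became 0 without untreated library 1 or 2 or IL-13 library 2, 1 without IL-13 library 3 or 4, and 5 without IL-13 library 1.

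The IL-13 effect itself differed between the days for 9 of 34 tested members, 5 with a higher and 4 with a lower value at day 6, against 3.12% and 4.95% of 13157 genes; total count scaling gave 6 and 3, and 516 and 498 over all genes in place of 410 and 651. The difference, the log2 effect at day 6 minus that at day 0, was 2.14 ± 0.18 for Rspo2 (adjusted p = 3.03e-08). At day 6 this gene read 2.83, 4.33, 3.69 and 3.71 CPM untreated and 4.88, 4.65, 3.48 and 3.03 CPM after IL-13, so the groups overlapped at a low level. For Fzd5 the difference was 0.98 ± 0.12 (adjusted p = 7.94e-06), with 19.8, 19.9, 21.8 and 18.3 CPM untreated and 20.2, 17.0, 15.8 and 17.9 CPM after IL-13 at day 6.

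The genes that IL-13 had raised at day 0 lay close together at day 6. Tcf7l1 differed by -1.07 ± 0.11 between the days (adjusted p = 7.61e-07) and read 67.5, 61.5, 66.5 and 73.2 CPM untreated and 57.4, 63.2, 66.9 and 71.2 CPM after IL-13 at day 6. Sfrp1 differed by -1.02 ± 0.11 (adjusted p = 2.30e-06), with 16.4, 17.6, 16.7 and 13.5 CPM untreated and 18.1, 15.9, 14.7 and 13.2 CPM after IL-13 at day 6. For Fzd1 the difference was -0.75 ± 0.08 (adjusted p = 6.18e-07), with day 6 values of 44.4, 46.6, 48.0 and 49.3 CPM untreated and 45.7, 48.9, 45.0 and 49.5 CPM after IL-13. In all of these the day 6 groups overlapped.

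The other 4 differences lost their call without 1 of several libraries. Lef1 (1.35 ± 0.38, adjusted p = 0.0325) had 0.643, 0.594, 0.528 and 0.580 CPM untreated and 0.309, 0.434, 0.802 and 0.291 CPM after IL-13 at day 6, where IL-13 library 3 was above every other library. Without that library the difference was 1.01 (adjusted p = 0.171), and it also missed the threshold without untreated day 0 library 1 (0.0502), IL-13 day 0 library 3 (0.0568) or untreated day 6 library 3 (0.053). Dkk2 (0.95 ± 0.26, adjusted p = 0.0255), with 19.4, 21.3, 21.6 and 17.1 CPM untreated and 18.5, 19.5, 18.4 and 16.5 CPM after IL-13 at day 6, missed it without untreated day 0 library 3 (0.0555) or IL-13 day 0 library 1 (0.0545). Tcf7l2 (0.47 ± 0.14, adjusted p = 0.0413) had 35.3, 33.6, 35.8 and 32.8 CPM untreated and 28.9, 28.2, 22.0 and 33.0 CPM after IL-13 at day 6, with only IL-13 library 4 in the untreated range. Its difference was lost without untreated day 0 library 4, IL-13 day 0 library 2 or 3 or IL-13 day 6 library 4 (adjusted p 0.0502 to 0.0628). Fzd4 (-0.39 ± 0.10, adjusted p = 0.0169), at 104, 110, 102 and 90.3 CPM untreated and 111, 102, 96.4 and 93.4 CPM after IL-13 at day 6, lost its call without untreated day 0 library 2 or 4, IL-13 day 0 library 1 or 4, untreated day 6 library 1, 2 or 3 or IL-13 day 6 library 4 (adjusted p 0.0521 to 0.0731) and with total count scaling (0.0919).

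Over differentiation most tested members changed. From day 0 to day 6, 11 of 34 tested members were higher and 17 lower in untreated cells, and 13 higher and 16 lower in IL-13 pre-treated cells. Over all genes the shares were 41.5% higher and 39.0% lower in untreated and 40.6% and 40.3% in pre-treated cells, so most genes of any kind changed; median log2 fold changes of the members were -0.391 and -0.195, against 0.038 and 0.001, and setting Wnt10b to its bound, given with the ligands, leaves the members' medians as they are. The summed levels of preadipocyte and mural markers were lower and that of adipocyte markers higher at day 6, as given above. Col1a1 and Acta2 dominate the first 2 sums, and single markers differed from them: in untreated cells Pdgfra was at 358 ± 16.2 CPM at day 0 and 347 ± 36.0 at day 6, Dcn at 2.21 ± 0.332 and 112 ± 14.3, and Des at 3.22 ± 0.22 and 13.5 ± 1.49. The part of these markers in the changes was not tested. The day comparisons in untreated and pre-treated cells contrast different libraries, but share a fit of all 16 and its estimate of the spread. Both also share libraries with the IL-13 comparisons.

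Of the inhibitors, Sfrp2, Dkk3 and Sfrp1 fell and Dkk2 and Apcdd1 rose. Sfrp2 (chromosome 3, 83766321 to 83774316, plus strand) read 1.35, 1.60, 2.57 and 1.22 CPM in untreated and 1.92, 1.80, 2.34 and 0.874 CPM in IL-13 libraries of day 6, from 226 or more at day 0. No day 6 library came near the day 0 range, and the log2 fold change was -7.15 ± 0.15 in untreated (adjusted p = 1.92e-19) and -7.17 ± 0.15 in pre-treated cells (adjusted p = 1.82e-19). Dkk3 had 0.257, 0.0594, 0.33 and 0.232 CPM untreated and 0.0618, 0.186, 0 and 0.0583 CPM after IL-13 at day 6 (-4.85 ± 0.28 and -6.31 ± 0.33). Sfrp1 fell by 2.82 and 3.83 on the log2 scale. Dkk2 instead rose from at most 1.32 CPM at day 0 to at least 16.5 CPM at day 6 (4.11 ± 0.14, adjusted p = 1.13e-16, and 5.06 ± 0.16, adjusted p = 4.43e-17). Apcdd1 rose as well, to 3.86, 4.75, 4.15 and 5.28 CPM untreated and 3.65, 5.39, 4.28 and 4.20 CPM after IL-13 (1.5 ± 0.22 and 1.32 ± 0.22). Sfrp4, another family member, was under 1 CPM in every library and not called in either comparison (adjusted p = 0.339 and 0.179).

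The Frizzled genes most abundant at day 0, Fzd1, Fzd7 and Fzd2, fell while Fzd4 rose. Fzd2 was at 5.15, 5.40, 6.79 and 6.96 CPM untreated and 5.32, 5.58, 6.02 and 6.53 CPM after IL-13 at day 6 (-2.93 ± 0.11 and -2.78 ± 0.11). Fzd7 was at 27.2, 26.2, 26.9 and 22.6 CPM and at 26.1, 25.4, 24.8 and 24.1 CPM (-1.32 ± 0.06 and -1.51 ± 0.06), and Fzd1 fell by 1.91 and 2.67 on the log2 scale. All of their day 6 libraries lay below all day 0 libraries. Fzd4 rose by 1.08 ± 0.07 in untreated (adjusted p = 1.04e-11) and 0.69 ± 0.07 in pre-treated cells (adjusted p = 1.26e-08), and by TPM it became the leading Frizzled, at 35.8% to 40.3% and 36.8% to 40.7% of the summed level, with Fzd1 at 28.5% ± 1.96 and 29.3% ± 1.86. The summed Frizzled level fell from 306 ± 13.9 to 126 ± 5.83 TPM in untreated and from 356 ± 27.5 to 113 ± 9.20 TPM in pre-treated cells. Ror2 fell to 5.47, 5.94, 5.80 and 5.57 CPM untreated and 5.87, 6.08, 5.82 and 6.12 CPM after IL-13 (-2.16 ± 0.08 and -2.06 ± 0.08). Its relative Ror1, under the filter, went from 2 to 19 counts in untreated libraries and from 0 to 23 in IL-13 libraries, the latter at least 7.74-fold higher against a floor of 3 counts over the group. The co-receptors moved up, Lrp5 by 0.35 ± 0.08 and 0.44 ± 0.08, and Lrp6, at 312, 320, 291 and 248 CPM untreated and 310, 271, 216 and 240 CPM after IL-13, by 0.35 ± 0.11 (adjusted p = 0.0064) and 0.79 ± 0.11 (adjusted p = 2.19e-06). The first Lrp6 value was not called with total count scaling (0.25, adjusted p = 0.0798) or with the nuclear RNA index (0.0824, adjusted p = 0.525). Fzd3 rose in both (0.32 ± 0.12 and 0.47 ± 0.13), and Fzd6 fell in untreated cells (-0.40 ± 0.15, adjusted p = 0.0188) and was not called in pre-treated cells (0.09 ± 0.17, adjusted p = 0.647).

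Fzd5 went opposite ways by pre-treatment. It fell by 0.40 on the log2 scale in untreated cells (SE 0.08, adjusted p = 0.00014) and rose by 0.58 ± 0.09 in pre-treated cells (adjusted p = 4.09e-06), ending at 18.3 to 21.8 and 15.8 to 20.2 CPM. Tcf7l1 was not called in untreated cells (-0.05 ± 0.08, adjusted p = 0.537) and fell by 1.13 in pre-treated cells (SE 0.08, adjusted p = 2.17e-11). Tcf7l2 was not called in untreated cells (-0.19 ± 0.10, adjusted p = 0.0764) and rose by 0.28 ± 0.10 in pre-treated cells (adjusted p = 0.0147), a call lost without IL-13 day 6 library 4 (0.0635), with total count scaling (0.0589) and with the nuclear RNA index (0.0648). The differences of these 3 genes between the treatments are those given for the IL-13 effect above.

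**Figure D4:**
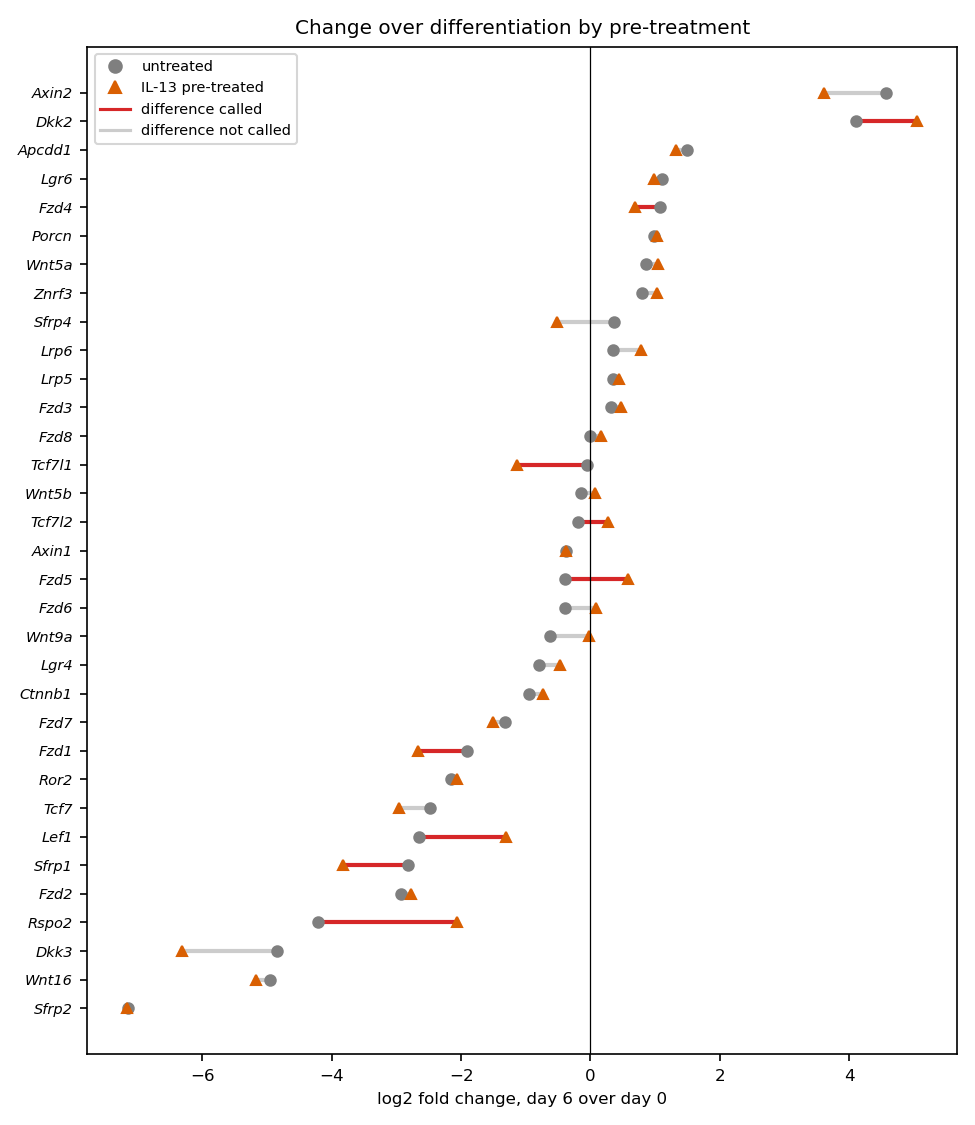
Log2 fold change from day 0 to day 6 (x axis) in untreated (circles) and IL-13 pre-treated cells (triangles) for 33 members tested across all 16 libraries; Wnt10b, at 0 counts at day 6, is left out. Lines join the values of a gene, red where the difference was called; the red lines of Rspo2 (-4.21 and -2.07) and Lef1 (-2.65 and -1.30) are the longest.

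Of the R-spondin axis, Rspo2 fell 18.6-fold in untreated cells (-4.21 ± 0.12, adjusted p = 3.73e-18) and 4.20-fold in pre-treated cells (-2.07 ± 0.12, adjusted p = 1.47e-12). Lgr4 fell to 42.1, 40.7, 34.4 and 37.4 CPM untreated and 38.6, 30.9, 26.6 and 30.8 CPM after IL-13 (-0.79 ± 0.11 and -0.47 ± 0.11), and in pre-treated cells its day 0 and day 6 libraries overlapped. Lgr6 rose to 2.12, 2.38, 2.31 and 2.26 CPM untreated and 2.23, 2.11, 2.67 and 2.86 CPM after IL-13 (1.11 ± 0.22 and 0.98 ± 0.22). Znrf3, itself a target of beta-catenin in many tissues, rose to 18.4, 15.7, 15.2 and 15.3 CPM and to 17.3, 15.3, 14.2 and 15.8 CPM (0.80 ± 0.11 and 1.03 ± 0.11), above every day 0 library.

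Axin2 rose from near 0 at day 0 to 2.12, 0.831, 1.32 and 1.74 CPM untreated and 1.30, 1.30, 1.40 and 0.874 CPM after IL-13 (4.57 ± 0.56, adjusted p = 2.41e-07, and 3.61 ± 0.55, adjusted p = 4.24e-06). All day 6 libraries were above all day 0 libraries, although the level stayed near 1 CPM. Ctnnb1 fell by 0.95 and 0.73 on the log2 scale, to 440 to 461 and 448 to 496 CPM, and Axin1 fell by 0.38 and 0.37. Lef1 fell by 2.65 and 1.30, and Tcf7 fell by 2.48 and 2.96, to 0.322, 0.534, 0.198 and 0.348 CPM untreated and 0.0618, 0.372, 0.267 and 0.291 CPM after IL-13. Porcn rose to 3.35, 4.33, 4.22 and 5.33 CPM and to 2.91, 4.15, 5.01 and 4.02 CPM (0.99 ± 0.21 and 1.03 ± 0.22).

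The ligand make-up turned over. Wnt10b, the ligand best known for holding back fat cell formation, had 68 counts in untreated and 56 in IL-13 day 0 libraries and 0 in all 8 libraries of day 6, at least 20.4-fold and 18.5-fold lower against a floor of 3 counts over each group. Wnt2, under the filter, had 25 and 48 counts at day 0 and 0 at day 6, at least 7.52-fold and 15.9-fold lower. Wnt16 fell to 0.322, 0.475, 0 and 0.290 CPM untreated and 0.124, 0, 0.201 and 0.0583 CPM after IL-13 (-4.95 ± 0.29 and -5.18 ± 0.40). Wnt5a rose instead, to 7.01, 10.4, 6.59 and 7.19 CPM and to 6.68, 7.81, 6.35 and 5.59 CPM (0.86 ± 0.15, adjusted p = 2.40e-05, and 1.05 ± 0.16, adjusted p = 4.35e-06). Wnt5a then made up 58.0% ± 5.07 and 53.8% ± 5.16 of the summed ligand TPM, which was 5.47 ± 0.969 untreated and 4.58 ± 0.454 after IL-13. Wnt9a read 0.643, 0.653, 0.264 and 0.928 CPM untreated and 0.680, 0.620, 0.401 and 0.874 CPM after IL-13, overlapping its day 0 values.

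Among the 66 other pathway genes tested over differentiation, 19 were higher and 41 lower in untreated cells, and 20 and 41 in pre-treated cells. Over all genes 41.5% were higher and 39.0% lower in untreated cells, and 40.6% and 40.3% in pre-treated cells. In untreated cells Tspan12, the tetraspanin that partners Fzd4 in Norrin signalling, rose from 5.96 ± 0.356 to 159 ± 3.66 CPM (4.74 ± 0.07, adjusted p = 4.83e-22). Celsr2, a polarity cadherin (3.92 ± 0.21), Plcb1 (3.57 ± 0.13) and the Wnt-inducible GTPase Rhou (2.62 ± 0.09) rose too. The Wnt-induced Wisp2 went from 57.0 ± 5.26 to 0.348 ± 0.169 CPM and the cell cycle cyclin Ccnd1 from 106 ± 7.61 to 0.675 ± 0.339 CPM, both at -7.30 ± 0.17. Wisp1 (-5.21 ± 0.09) and Tpbg, a membrane Wnt inhibitor (-3.85 ± 0.12), also fell. For the IL-13 effect, 4 of these 66 genes were higher and 6 lower at day 6 than at day 0, against 3.12% and 4.95% of all genes.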

How the data were processed

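RNA was sequenced in 16 libraries, 4 per group, made with a stranded mRNA kit per the labels. The authors deposited 2 tables, 1 per day, of raw read counts per gene and TPM (counts divided by gene length and scaled to a common total); the build was mm10 per the submitters' processing notes, while the aligner, counter, annotation and strand setting were not given in the sources used. Member coordinates were those of GENCODE vM21 for 57 of 60 genes. Counts were tested with edgeR 4.0.16 (quasi-likelihood, robust, TMM; filterByExpr with minimum count 10 and total 15): IL-13 comparisons on their own 8 libraries, day comparisons and the difference on all 16, Benjamini-Hochberg over all tested genes, called under 0.05. SE is |log2 fold change| over the root of F. Levels are CPM on TMM-scaled sizes of all 16 libraries. TPM, not TMM-scaled, serves for order, shares and family sums. TPM sums of different groups therefore also carry differences in scaling. For example, Axin1 had means of 64.5 and 53.8 TPM but 66.8 and 64.6 CPM in untreated and IL-13 day 0 libraries. Depth limits precision to 3 counts at 0.

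Members and lists were chosen with earlier results of these data known. Values in every library are given for members called with a log2 fold change of at least 1, called in the difference, or among the 3 smallest p of their role for IL-13 at day 0; other pathway genes are the 4 with the smallest p per direction and any called at day 6. Alternatives were size factors (RLE), total counts, DESeq2 1.42.0, no filter, a replicate block, a nuclear RNA covariate, other library sets and leaving out each library. The fit of the IL-13 comparison at day 0 was run on simulated counts with known changes. Low-count genes were given no changes there, and the other comparisons were not simulated. Libraries of a group differed by more than sampling noise in every pair.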

Additional observations from a re-analysis of the deposited data

Results flagged for a closer look

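The IL-13 effect differed between day 6 and day 0, by the interaction term of edgeR's quasi-likelihood fit, for 9 members, as log2 values at day 6 minus day 0: Rspo2 2.14, Lef1 1.35, Fzd5 0.98, Dkk2 0.95, Tcf7l2 0.47, Fzd4 -0.39, Fzd1 -0.75, Sfrp1 -1.02 and Tcf7l1 -1.07. As given above, the calls of Lef1, Dkk2, Tcf7l2 and Fzd4 were lost when certain single libraries were left out.

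Single libraries stood apart from the other 3 of their group in 11 of 134 groups of values tested by Dixon's ratio, which chance flags in about 1 of 20. At day 0, untreated library 3 was low for Lgr4 (58.6 CPM, the others 69.3 to 69.9) and Fzd3 (6.73 CPM, the others 9.24 to 9.52). Untreated library 2 was high for Apcdd1 (2.59 CPM, the others 1.27 to 1.34), and untreated library 1 for Fzd4 (50.5 CPM, the others 46.9 to 47.4). In the IL-13 group of day 0, library 1 was low for Lgr6 (0.958 CPM, the others 1.33 to 1.36) and high for Dkk3 (7.37 CPM, the others 6.47 to 6.58), and library 3 was low for Sfrp2 (230 CPM, the others 250 to 254). At day 6, IL-13 library 1 was high for Ctnnb1 (496 CPM, the others 448 to 454) and Fzd3 (11.4 CPM, the others 8.12 to 8.62) and low for Lrp5 (124 CPM, the others 152 to 154), and untreated library 2 was high for Wnt5a (10.4 CPM, the others 6.59 to 7.19).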

How the results depend on the processing

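The counts of called members kept within 1.5 times under size factors, DESeq2, no filter and the other library sets. The exceptions were IL-13 at day 0 with the nuclear RNA covariate (10), and IL-13 at day 6 with total counts (1) and with the replicate block (3). Leaving out 1 library gave 16 to 18 members for IL-13 at day 0, 0 to 4 at day 6, 27 to 30 and 28 to 30 for the day comparisons without and with IL-13, and 8 to 10 for the difference. For the other pathway genes the day 0 count was 11 with the covariate, 26 without untreated libraries 1 and 4, and 32 to 47 leaving out 1; the day 6 count was 8 with total counts, 5 with DESeq2, 8 with the replicate block, 0 with the covariate, 6 with all 16 libraries in one fit, 0 without untreated libraries 1 and 2, and 0 to 5 leaving out 1; the day comparisons gave 59 to 60 and 58 to 62, and the difference 7 to 9. At day 6 the share of all genes called also rose with total counts and with the replicate block. Whether the rise of these counts is particular to the pathway genes was not tested. In all of these the cause was not tested.

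Of the IL-13 effects at day 6, none of them called, Sfrp1 turned to 0.19 with the covariate and 0.0336 without untreated libraries 1 and 2, Fzd1 to -0.0682 with total counts, -0.0904 with the covariate and -0.0441 without those libraries, and Fzd4 to 0.0049 without a filter, 0.19 with the covariate and 0.0596 without those libraries. Leaving out 1 library gave -0.14 to 0.0289 for Sfrp1, -0.0916 to 0.00253 for Tcf7l1, -0.00701 to 0.042 for Fzd1 and -0.0656 to 0.0341 for Fzd4.

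Same-numbered libraries deviated together with correlations of 0.139, -0.0431, 0.18 and 0.0726 at day 0 and 0.197, 0.00611, 0.171 and 0.215 at day 6. Different-numbered libraries gave -0.171 to 0.106 at day 0 and -0.22 to 0.269 at day 6. The labels state no pairing and none was assumed, but these values do not settle whether the numbers pair libraries. The replicate block called 19 members for IL-13 at day 0 (53.1% of all genes), 3 of 28 at day 6 (Fzd6, Tcf7l2 and Lgr4, all lower; 22.8% of all genes, 6.55% without the block), 29 in each day comparison and 12 in the difference. Members under about 1 CPM rest on few counts, which limits what can be called for the ligands.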
